A study of Mus musculus with 6 samples.

Results

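Neuropeptides and gut peptides are cut from longer precursors, packed into secretory granules and released to act on G protein-coupled receptors of nearby or distant cells. In the pancreas they come from nerve endings, from rare endocrine cells and, for some, from beta cells themselves. NPY and galanin are known to restrain insulin release, whereas PACAP, CART and CCK are known to enhance it when glucose is high. The genes described here are the precursors Npy, Gal, Cartpt, Tac1 and Adcyap1, best known from neurons, and Cck, Gast, Nts and Ghrl, best known from the gut. They were chosen by name, and all 9 were found among the 16547 genes of the table, with 0 absent.

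The study sequenced RNA of isolated pancreatic islets. Both groups were C57BL/6 mice of 11 to 12 weeks of age, each with 3 libraries, and their islets were picked by hand and cultured for 2 days. The control group (WT) was Kcnj11 fl/fl, and the knockout group (bKO) was BetaKcnj11 -/-, in which Kcnj11 was deleted in beta cells. Kcnj11 encodes Kir6.2, which forms the pore of the potassium channel that ATP closes in beta cells. The promoter that drove the deletion, and whether each library came from 1 animal or from pooled animals, are not stated in the labels. The p-values therefore measure the spread between these libraries, which may be technical. The values were FPKM, fragments per transcript length and library depth, a scale on which levels of different genes can be compared.

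Kcnj11 measured 19.7, 24.7 and 25.4 FPKM across WT replicates 1, 2 and 3, against 3.45, 5.31 and 3.51 FPKM across bKO replicates 1, 2 and 3. Ins1 and Ins2 together took 26.4% to 37.4% of all FPKM, and every listed marker of beta, alpha, delta and PP cells was above 0 in all 6 libraries. Depth, estimated from the steps between low FPKM values, was 23400000 to 27800000 fragments in WT and 26700000 to 41300000 in bKO. The profiles of bKO replicates 1 and 3 lay closer to each other (Pearson correlation across genes 0.999) than those of any other pair (0.982 to 0.996), so these libraries may not be separate samples. The library median was 6.10 to 6.15 FPKM in WT and 6.46 to 6.53 FPKM in bKO, so deposited values lean toward higher levels in bKO before normalization. WT replicate 1 stood apart in acinar enzyme genes, whose summed level over 11 markers was 1319 FPKM against 16434 and 19813 FPKM in the other WT libraries.

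None of the 9 precursors passed the test between bKO and WT islets in limma, with adjusted p-values from 0.321 to 0.994, while 31 of 15962 genes did (0.194%). Cartpt, Adcyap1 and Nts came closest, each with higher deposited FPKM in all 3 bKO libraries than in any WT library. At an unadjusted p below 0.05 there were 3 members of 9, these same genes, against 14.2% of all genes tested. Their absence of overlap rested on the scale. On deposited FPKM 3 of 9 members were higher without overlap, against 15.3% of all genes, and on quantile normalized values the number was 0, against 7.1% of all genes. The mean deposited FPKM was higher in bKO for 8 members and lower for 1, Tac1. Library medians were also higher in bKO on this scale, and the share over all genes was not counted on it. After normalization the log2 difference was positive for 6 members and negative for 3, with a median of 0.22, and over all genes it was positive for 47%, with a median of -0.0084.

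**Figure D1:**
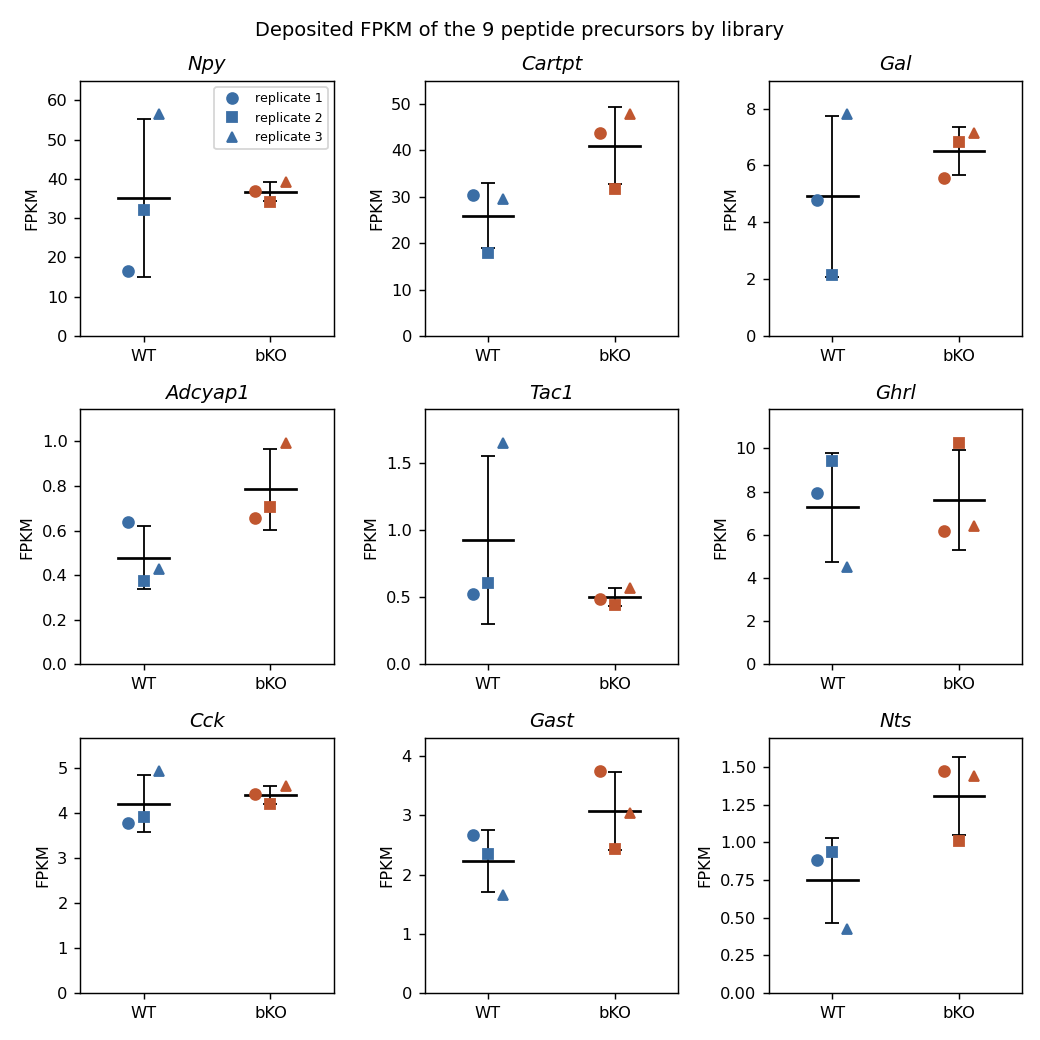
Deposited FPKM (vertical axes, linear from 0) of each precursor in the WT and bKO libraries, with 1 point per library, a line at the group mean and bars of 1 SD (n = 3 each). Cartpt, Adcyap1 and Nts do not overlap between the groups, and Npy, Gal and Tac1 spread far more in WT than in bKO.

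The promoters of the 3 genes that came closest to a difference are shown for reference to their sequence. Each is the 250 bases before a RefSeq start site in GRCm38.p6, written 5′ to 3′ along the gene's strand. Capitals mark matches on either strand to TGACG, the core of the cAMP response element (CRE), or to the AP-1 motif TGANTCA. The FPKM were made on another build, so these positions were not joined to the expression values.
Cartpt (chr13:99900684-99900933, minus strand): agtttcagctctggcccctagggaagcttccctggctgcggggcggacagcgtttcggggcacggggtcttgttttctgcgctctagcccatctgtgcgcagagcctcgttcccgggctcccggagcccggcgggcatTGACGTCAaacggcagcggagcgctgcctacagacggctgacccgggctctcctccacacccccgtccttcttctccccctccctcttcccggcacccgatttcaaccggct
Nts (chr10:102490419-102490668, minus strand): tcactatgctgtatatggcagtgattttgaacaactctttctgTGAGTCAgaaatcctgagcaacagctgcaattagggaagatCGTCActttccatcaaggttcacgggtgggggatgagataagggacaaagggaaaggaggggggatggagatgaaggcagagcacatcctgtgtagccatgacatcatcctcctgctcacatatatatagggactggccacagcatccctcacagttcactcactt
Adcyap1 (chr17:93198767-93199016, plus strand, the upstream of 2 listed starts): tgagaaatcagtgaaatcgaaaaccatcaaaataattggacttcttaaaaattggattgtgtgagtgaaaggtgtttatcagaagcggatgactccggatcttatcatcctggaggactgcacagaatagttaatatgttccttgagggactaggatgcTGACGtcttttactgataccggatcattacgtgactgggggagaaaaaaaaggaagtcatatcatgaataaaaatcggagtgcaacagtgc

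The full palindrome TGACGTCA, searched on both strands, was found in the Cartpt promoter, where it begins 112 bases before the start. It occurs in 1.55% of the 32851 promoter windows of this length. The shorter TGACG, which lies inside that palindrome, was found in 6 of the 13 windows of the members, against 17.8% of all windows. These belong to Cartpt, Cck, Nts, Tac1 and Adcyap1, whose 2 overlapping windows hold the same site. TGANTCA was found in 2 of the 13 windows, of Nts and Ghrl, against 6.75% of all windows. These are matches of letters and say nothing of whether a factor was bound.

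Levels of the precursors spanned from below 1 FPKM to above 50 FPKM. Npy and Cartpt were the most abundant, with means over the 6 libraries of 35.9 and 33.5 FPKM, and together they made up 68.9% to 80.1% of the summed FPKM of the 9 genes. Their order was not fixed, with Npy above Cartpt in 3 of 6 libraries. Cartpt was above the next gene, Ghrl, in every library, at 33.5 against 7.44 FPKM. Ghrl, Gal and Cck followed at 7.44, 5.71 and 4.31 FPKM, with ranges that overlapped from each to the next. Cck lay above Gast in all 6 libraries and Gast, at 2.65 FPKM, above Nts in all 6, without overlap of their ranges. Nts, Tac1 and Adcyap1, at 1.03, 0.713 and 0.631 FPKM, overlapped in turn. The 9 genes together held 0.00848% to 0.0158% of all FPKM.

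Cartpt encodes CART, a peptide of neurons and islet endocrine cells that in rodents is known to enhance insulin release. Cartpt measured 30.3, 17.9 and 29.6 FPKM across WT replicates 1, 2 and 3, against 43.7, 31.6 and 47.8 FPKM across bKO replicates 1, 2 and 3. All 3 bKO libraries lay above all WT libraries, but bKO replicate 2 was only 1.04 times WT replicate 1. The means were 26.0 ± 6.96 FPKM in WT and 41.0 ± 8.39 FPKM in bKO (SD, n = 3 each), a ratio of 1.58. The log2 difference was 0.60 (SE 0.23, 95% interval 0.04 to 1.17, limma adjusted p = 0.321). It stayed positive with each library left out in turn, from 0.37 without WT replicate 2 to 0.78 without bKO replicate 2, and was 0.52 when bKO replicates 1 and 3 counted as 1 averaged library (limma adjusted p = 0.763). Summed levels of 8 stellate cell and fibroblast markers were 369, 147 and 146 FPKM in the 3 WT libraries and 471, 247 and 462 FPKM in the bKO libraries. Those of 6 duct markers were 2002, 1392 and 1920 FPKM in WT and 2376, 1947 and 2349 FPKM in bKO, in replicate order, lowest like Cartpt in WT replicate 2. The 11 acinar markers summed to 1319, 16434 and 19813 FPKM in WT and 26046, 11544 and 25711 FPKM in bKO. All 3 lists were, like Cartpt, highest in bKO replicates 1 and 3, with 0 of their markers at 0. The lists of islet endocrine cells and neurons did not move this way. Delta markers summed to 4722, 5613 and 4870 FPKM in WT and 3763, 5114 and 3840 FPKM in bKO. Beta and alpha markers were also lowest in bKO replicates 1 and 3. PP markers were highest in WT replicate 1 and neuron markers in bKO replicate 2. The part of any list in the Cartpt difference was not tested. In bulk islets, fewer cells of a type and less RNA per cell cannot be told apart.

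Npy encodes neuropeptide Y, a transmitter of sympathetic nerves that is also made by immature beta cells of rodents. Npy measured 16.7, 32.1 and 56.4 FPKM across WT replicates 1, 2 and 3, against 36.8, 34.2 and 39.2 FPKM across bKO replicates 1, 2 and 3. The bKO libraries lay inside the WT range, which ran 3.39-fold from lowest to highest against 1.14-fold in bKO. Means were 35.1 ± 20.1 FPKM in WT and 36.8 ± 2.47 FPKM in bKO (SD, n = 3 each), with a log2 difference of 0.18 (95% interval -0.71 to 1.07, limma adjusted p = 0.838). The sign turned without WT replicate 1, to -0.24, and without WT replicate 3 the value was 0.58. WT replicate 1, the lowest library for Npy, also had the lowest summed acinar markers (1319 FPKM). The other libraries did not keep this order. Acinar sums were highest in bKO replicates 1 and 3 (26046 and 25711 FPKM), yet Npy was highest in WT replicate 3 (acinar sum 19813 FPKM). The part of acinar tissue in the Npy spread was not tested.

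Gal encodes galanin, a peptide of pancreatic nerves that inhibits insulin release. Gal measured 4.79, 2.14 and 7.80 FPKM across WT replicates 1, 2 and 3, against 5.57, 6.83 and 7.12 FPKM across bKO replicates 1, 2 and 3. The bKO libraries again lay within the WT range. The log2 difference was 0.38 (95% interval -0.44 to 1.20, limma adjusted p = 0.630), and it was -0.0022 without WT replicate 2, the lowest library, and 0.72 without WT replicate 3, the highest.

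Adcyap1 encodes PACAP, a peptide of the secretin and VIP family that raises cAMP and amplifies glucose-induced insulin release. Adcyap1 measured 0.637, 0.372 and 0.427 FPKM across WT replicates 1, 2 and 3, against 0.655, 0.703 and 0.993 FPKM across bKO replicates 1, 2 and 3. The groups did not overlap, though bKO replicate 1 exceeded WT replicate 1 by a factor of only 1.03. Means were 0.479 ± 0.140 and 0.784 ± 0.183 FPKM (SD, n = 3 each), and the log2 difference of FPKM plus 1, which understates changes at this level, was 0.22 (95% interval 0.0064 to 0.43, limma adjusted p = 0.339). With a pseudocount of 0.1 it was 0.49 (limma adjusted p = 0.353), and without bKO replicate 3 it was 0.14.

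Tac1, the precursor of substance P and neurokinin A of sensory nerves, was the member with a lower mean in bKO. Tac1 measured 0.522, 0.604 and 1.65 FPKM across WT replicates 1, 2 and 3, against 0.488, 0.443 and 0.571 FPKM across bKO replicates 1, 2 and 3. WT replicate 3 alone set the WT mean of 0.925 ± 0.627 FPKM apart from the bKO mean of 0.501 ± 0.0645 FPKM (SD, n = 3 each), since without it the WT mean was 0.563 FPKM. The log2 difference was -0.37 (limma adjusted p = 0.483), and it was -0.10 without WT replicate 3 and -0.73 with a pseudocount of 0.1. Summed levels of 10 neuron markers and of 8 Schwann cell markers were lowest in that same library, at 29.9 and 17.8 FPKM. Over the other libraries they were 37.4 to 50.8 FPKM for neuron markers and 19.1 to 33.0 FPKM for Schwann cell markers, with 0 markers of either list at 0. List medians of log2(FPKM + 1) minus the WT mean set WT replicate 3 less apart. They were -0.042 for neuron markers, against -0.025 in WT replicate 2, and -0.26 against -0.20 for Schwann cell markers. The part of these cells in the Tac1 values was not tested.

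Among the gut peptides, Ghrl was the most abundant. It encodes ghrelin, the hormone of stomach endocrine cells and of the rare epsilon cells of the islet. Ghrl measured 7.93, 9.42 and 4.50 FPKM across WT replicates 1, 2 and 3, against 6.16, 10.3 and 6.38 FPKM across bKO replicates 1, 2 and 3. The groups overlapped, with bKO replicate 2 highest and WT replicate 3 lowest, and the log2 difference was -0.0067 (95% interval -0.67 to 0.66, limma adjusted p = 0.994). The sign of this value turned positive on 7 of 14 alternatives. A pair of genes annotated on the opposite strand, Gm26982 and Gm44033, overlap Ghrl in GENCODE M21, and the sources used here do not say whether strand was used, so reads from the opposite strand could be included.

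Cck encodes cholecystokinin, the gut hormone that drives pancreatic enzyme secretion. Cck measured 3.79, 3.92 and 4.94 FPKM across WT replicates 1, 2 and 3, against 4.43, 4.20 and 4.61 FPKM across bKO replicates 1, 2 and 3. All bKO libraries lay within the WT range. Its log2 difference was -0.019 (95% interval -0.26 to 0.22, limma adjusted p = 0.944), and the sign turned without quantile normalization, where the value was 0.060.

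Gast encodes gastrin, which comes from the stomach in adults and also from the fetal pancreas. Gast measured 2.67, 2.36 and 1.66 FPKM across WT replicates 1, 2 and 3, against 3.75, 2.43 and 3.04 FPKM across bKO replicates 1, 2 and 3. The groups overlapped through bKO replicate 2, which lay below WT replicate 1. Means were 2.23 ± 0.519 and 3.07 ± 0.659 FPKM (SD, n = 3 each), with a log2 difference of 0.23 (95% interval -0.13 to 0.59, limma adjusted p = 0.519). It was 0.10 without WT replicate 3 and 0.13 without bKO replicate 1.

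Nts encodes neurotensin, a peptide of the ileum and of neurons. Nts measured 0.886, 0.937 and 0.421 FPKM across WT replicates 1, 2 and 3, against 1.47, 1.01 and 1.44 FPKM across bKO replicates 1, 2 and 3. The lowest bKO library was 1.08 times the highest WT library. The means, 0.748 ± 0.284 FPKM in WT and 1.31 ± 0.259 FPKM in bKO (SD, n = 3 each), gave a ratio of 1.75, the widest among the members with a higher mean in bKO. The log2 difference was 0.35 (SE 0.13, 95% interval 0.02 to 0.67, limma adjusted p = 0.321), and with bKO replicates 1 and 3 averaged it was 0.30 (limma adjusted p = 0.762). Without WT replicate 3 it was 0.21, and with a pseudocount of 0.1 it was 0.66 (limma adjusted p = 0.354).

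**Figure D2:**
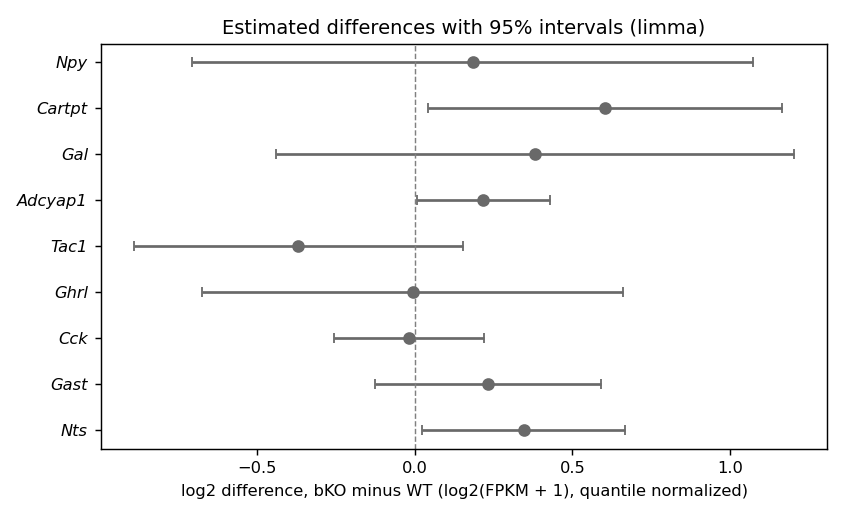
Log2 difference of bKO minus WT (horizontal axis, quantile normalized log2(FPKM + 1)) for each precursor, with 95% intervals from limma as bars. The intervals of Cartpt, Adcyap1 and Nts lie just above 0 before adjustment over all genes, and those of the other 6 include 0.

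On deposited FPKM the exact permutation test of 3 against 3 libraries (two-sided) gave p = 0.1 for Cartpt, Adcyap1 and Nts, the smallest p it can give. It gave 0.2 for Gast and Tac1, 0.5 for Gal, 0.7 for Cck, 0.8 for Npy and 0.9 for Ghrl in exact tests of the same kind.

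Part of the spread of the scarce members was of the size of counting error. The 6 members with 1 listed transcript were converted to approximate fragment numbers. These came from the estimated depth and the transcript length less the estimated mean fragment length, 220 to 270 bases by library. At 460 bases, the Gast transcript was shorter than any used for that estimate, so its numbers are an extrapolation. Gast rested on 9 to 15 fragments per WT library and 17 to 25 per bKO library, and its coefficient of variation was 0.798 and 0.955 times that of counting alone. Nts rested on 11 to 26 fragments in WT and 38 to 46 in bKO, with ratios of 1.56 and 1.27. For Nts the 95% Poisson interval of bKO replicate 2 was 0.728 to 1.38 FPKM, which spans the values of WT replicates 1 and 2. Adcyap1 rested on 32 to 47 and 64 to 91 fragments, with ratios of 1.77 and 2.05, and the interval of WT replicate 1, 0.465 to 0.842 FPKM, spans bKO replicates 1 and 2. At this depth the gaps between the nearest WT and bKO libraries of Nts and Adcyap1 are within counting error.

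In WT the spread of Npy and Gal was wider than counting error. Npy rested on 135 to 462 fragments in WT and 331 to 419 in bKO, and its spread was 8.61 times counting error in WT but 1.29 times in bKO. Gal rested on 31 to 107 and 93 to 146 fragments, with ratios of 4.18 and 1.33. Tac1 rested on 12 to 41 fragments in WT, of which the 41 of WT replicate 3 had an interval of 1.18 to 2.24 FPKM, above the intervals of all other libraries (highest bound 0.964 FPKM). All 9 members had a wider range in WT than in bKO, measured as the ratio of the highest to the lowest library, as did 64.4% of all genes tested. The closeness of bKO replicates 1 and 3 moves with this, and its part was not tested. Intervals cover counting error alone.

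**Figure D3:**
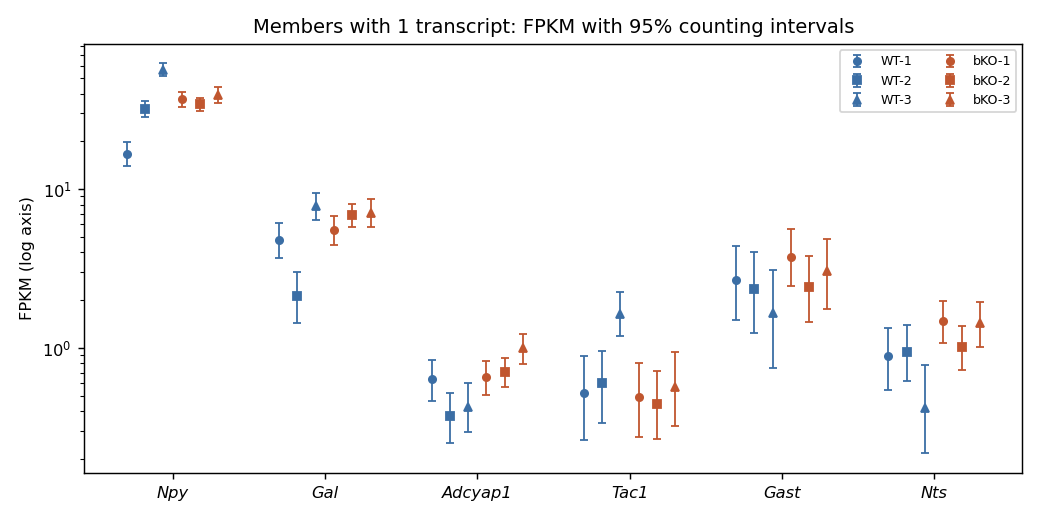
FPKM (vertical log axis) of the 6 members with 1 listed transcript in each library, with 95% Poisson intervals of the estimated fragment number as bars. The WT points of Npy and Gal lie outside each other's intervals, whereas those of Gast overlap throughout.

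The members did not share 1 pattern over the libraries. WT replicate 3 was the highest of 6 for Npy, Gal, Tac1 and Cck and the lowest of 6 for Gast, Nts and Ghrl. It was at an extreme of the WT group for 7 of 9 members, against 69.4% of all genes tested. bKO replicates 1 and 3 held the highest values of Cartpt, Nts and Gast, while bKO replicate 2 was highest for Ghrl. For members whose normalized values ranged over at least 1 on the log2 scale, genes with a mean of at least 5 FPKM were ranked by the root mean square distance of their centred profiles over the 6 libraries. Nearest to Cartpt were Icam1, Igfbp4 and Il6, at 0.068, 0.102 and 0.108 against a size of 0.42 for the profile itself. Nearest to Npy were Dcxr, Ubald2 and Fabp5 (0.156, 0.161 and 0.175 against 0.48), and nearest to Gal were Mmp3, Mid1 and Gna14 (0.193, 0.211 and 0.240 against 0.47). The choice was among 9120 genes over only 6 libraries, and is a description.

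**Figure D4:**
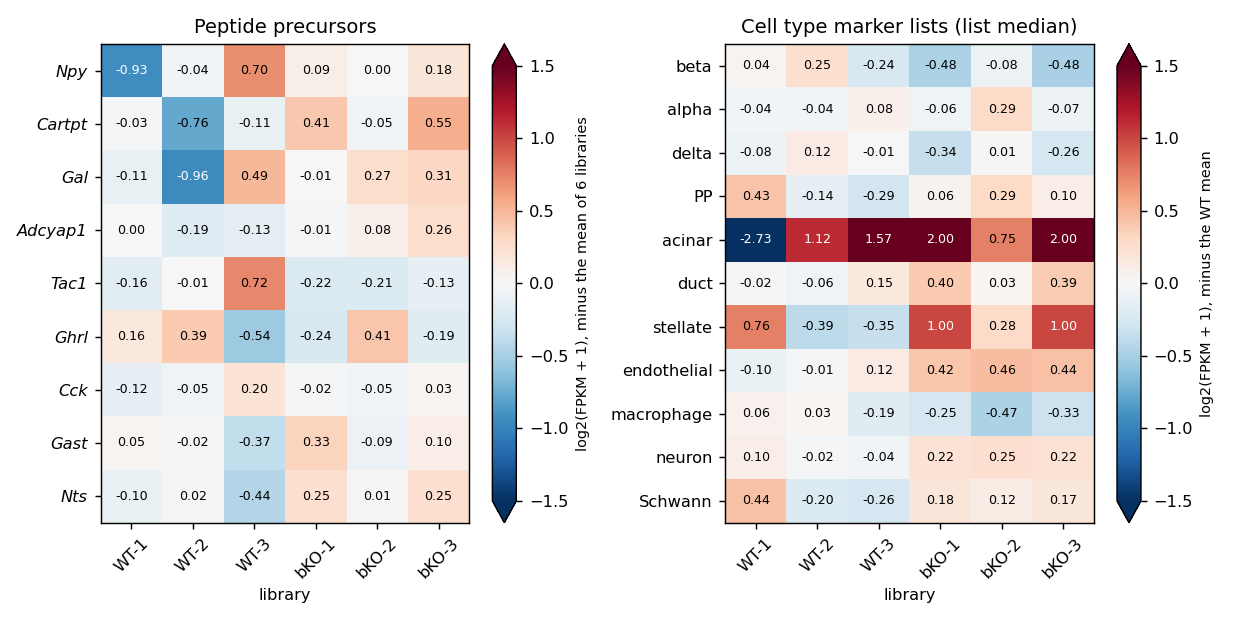
Left, quantile normalized log2(FPKM + 1) of each precursor in each library minus its mean over the 6 libraries. Right, median over each cell type marker list of log2(FPKM + 1) minus the WT mean, on the same colour scale. WT replicate 3 holds both the high values of Npy, Gal and Tac1 and the low values of Ghrl, Gast and Nts, and the stellate list is highest in bKO replicates 1 and 3.

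Of 19 receptors of these peptides, 14 were in the table and were tested, 0 passed in limma and 4 had an unadjusted p below 0.05 (14.2% of all genes did), with a median log2 difference of -0.0036. Galr1, a galanin receptor that couples to inhibitory G proteins, was at 7.95, 8.54 and 8.28 FPKM in WT and at 4.93, 6.81 and 4.69 FPKM in bKO, in replicate order. All bKO libraries lay below all WT libraries (log2 difference -0.61, 95% interval -0.93 to -0.29, limma adjusted p = 0.129). Galr3 leaned the other way, at 18.6 ± 1.96 FPKM in WT islets and 22.7 ± 1.56 FPKM in bKO islets (SD, n = 3 each; limma adjusted p = 0.342), and Galr2 was at 0.853 ± 0.0764 and 0.744 ± 0.217 FPKM. The receptors of PACAP were led by Vipr1, with 18.2 ± 1.004 FPKM in WT islets and 14.0 ± 1.94 FPKM in bKO islets (limma adjusted p = 0.158). Adcyap1r1, the receptor that prefers PACAP over VIP, was at 1.01 ± 0.129 and 1.31 ± 0.163 FPKM, and Vipr2 at 0.752 ± 0.0365 and 0.796 ± 0.0636 FPKM.

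Cckar, the CCK receptor of acinar cells, was at 0.306, 4.04 and 1.90 FPKM in WT and at 3.44, 3.40 and 3.14 FPKM in bKO, in replicate order. Its low WT library is again replicate 1, where summed acinar markers were 1319 FPKM. Between WT replicates 2 and 3 the order differed, with acinar sums of 16434 and 19813 FPKM but less Cckar in replicate 3. The part of acinar tissue was not tested (Cckar limma adjusted p = 0.576). Sort1, a sorting receptor that binds neurotensin, averaged 31.0 ± 2.83 FPKM in WT islets and 28.7 ± 2.33 FPKM in bKO islets (limma adjusted p = 0.475). Ghsr, the ghrelin receptor, which islet delta cells are known to carry, was at 1.07 ± 0.114 and 0.899 ± 0.173 FPKM. The means of Npy1r, Cckbr, Tacr1, Tacr3 and Ntsr2 were below 1 FPKM in both groups. Npy2r, Npy4r, Npy5r, Tacr2 and Ntsr1 were not found under these symbols among the genes of the table.

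All 10 listed processing genes were tested, 0 passed in limma and 5 had an unadjusted p below 0.05, against 14.2% of all genes. Of these 10, 8 had a negative and 2 a positive difference, with a median of -0.36, and the difference was positive for 47% of all genes. Pcsk1, a convertase that cuts prohormones at pairs of basic residues, averaged 210 ± 16.2 FPKM in WT islets and 125 ± 27.0 FPKM in bKO islets, with a log2 difference of -0.77 (limma adjusted p = 0.1004), and it passed without bKO replicate 2 (limma adjusted p = 0.0324). Pcsk2, the second convertase of islet granules, was at 600.2 ± 49.1 and 444 ± 66.3 FPKM (log2 difference -0.48, limma adjusted p = 0.248). Pam, which amidates the C-terminus of NPY, gastrin, CCK, substance P and PACAP, was at 366 ± 35.4 and 291 ± 32.0 FPKM (log2 difference -0.37, limma adjusted p = 0.171). Qpct, which forms the N-terminal pyroglutamate of neurotensin, was at 3.16 ± 0.587 and 2.25 ± 0.160 FPKM (log2 difference -0.45, limma adjusted p = 0.167). Mboat4, the acyltransferase that activates ghrelin, averaged 0.0821 ± 0.0575 FPKM in WT islets and 0.0792 ± 0.0674 FPKM in bKO islets. The summed beta cell markers were 270449 to 358691 FPKM in WT and 216291 to 292878 FPKM in bKO, lowest in bKO replicates 1 and 3 where Pcsk1 was also lowest, and their part was not tested.

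Of 24 other peptide precursors, 20 were in the table and 17 were tested. In limma 2 passed, both lower in bKO (over all genes 0.132% were lower), and the median log2 difference was -0.24. One was Pdyn, the precursor of dynorphins, at 207, 241 and 237 FPKM in WT and at 91.1, 89.8 and 91.1 FPKM in bKO, in replicate order (log2 difference -1.35, SE 0.06, limma adjusted p = 0.00365). The other was Vgf, a granule protein cut into several peptides, at 52.8, 72.1 and 87.9 FPKM in WT and at 29.0, 28.6 and 29.1 FPKM in bKO (log2 difference -1.26, SE 0.15, limma adjusted p = 0.0453). Both were lower in every bKO library than in any WT library. With libraries left out or averaged, Pdyn lost the threshold without bKO replicate 1 or 3 and with these averaged (limma adjusted p = 0.0760 to 0.0785). Vgf passed without WT replicate 1, and it lost the threshold without any other library, with the pair averaged, without quantile normalization, with scaling by median of ratios and without a trend (limma adjusted p = 0.0572 to 0.307). Vip, the close relative of Adcyap1 and a peptide of pancreatic nerves, was at 26.2, 20.8 and 25.6 FPKM in WT and at 36.7, 40.9 and 35.4 FPKM in bKO, in replicate order. All bKO libraries lay above all WT libraries (log2 difference 0.56, 95% interval 0.32 to 0.80), and it missed the threshold (limma adjusted p = 0.0968). The 10 neuron markers summed to 42.7, 37.4 and 29.9 FPKM in WT and 42.3, 50.8 and 41.3 FPKM in bKO, highest like Vip in bKO replicate 2. Unlike Vip they overlapped between the groups, with WT replicate 1 above bKO replicates 1 and 3. The 6 endothelial markers summed to 103, 109 and 116 FPKM in WT and 148, 151 and 149 FPKM in bKO, without overlap. The part of these lists in the Vip values was not tested. Pomc, the precursor of melanocortins and endorphin, averaged 5.39 ± 0.936 FPKM in WT islets and 3.96 ± 0.181 FPKM in bKO islets, a log2 difference of -0.45 (limma adjusted p = 0.170). The differences of Pdyn and Vgf lay outside the range of the 9 members, whose log2 differences ran from -0.37 to 0.60, and the difference between these genes was not tested.

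**Figure D5:**
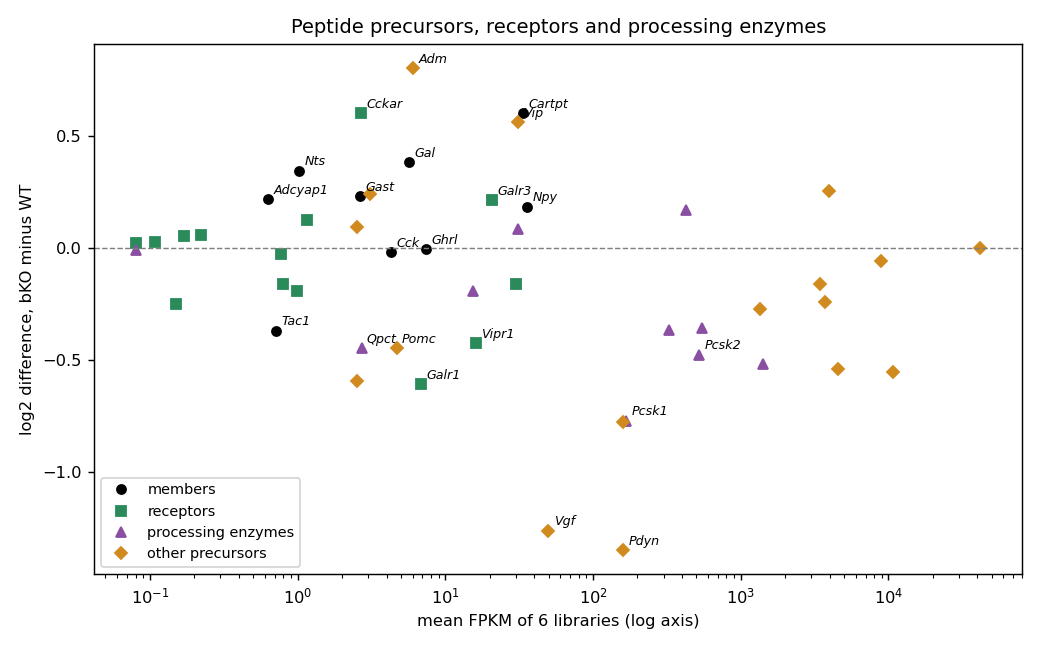
Log2 difference of bKO minus WT (vertical axis) against mean FPKM over 6 libraries (horizontal log axis) for the 9 members and the tested genes of the 3 companion lists, with 1 point per gene. The members lie between -0.37 and 0.60, and Pdyn and Vgf, at -1.35 and -1.26, are the lowest points.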

How the data were processed

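The deposited values are FPKM, which the authors' service provider made with Cufflinks under a fixed annotation from trimmed, mapped reads, per the labels and the design text. The submitters' processing notes name the mm9 build and no aligner is stated. Per the design text, values were log transformed and quantile normalized and genes at 0 removed, yet the deposited FPKM are linear and 585 genes hold a 0. A row of column medians and a blank row were left out. Columns were matched to samples by genotype and replicate number.

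Removing these 585 genes left 15962 to test, all 9 members among them. Values were transformed as log2(FPKM + 1), which understates changes of low genes, and quantile normalized. The bKO and WT libraries were compared with limma 3.58.1 (lmFit, eBayes with trend, two-sided; R 4.3.3), Benjamini-Hochberg adjusted over all genes, with a threshold of 0.05. The steps were tested on simulated data. Means and SD are of deposited FPKM. Depth and mean fragment length were estimated together, as the values at which low FPKM of genes with 1 transcript came nearest to whole fragments. Of the values used, 62.4% to 68.1% lay within 0.1 of a whole number, so fragment numbers are approximate. Promoter sequences are from RefSeq (GRCm38.p6), in which all 9 members matched by symbol, and motifs were searched on both strands.

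The members and lists were chosen with earlier results of these data known. Named are all members, their receptors, Kcnj11 and in each companion list up to 4 genes with the smallest unadjusted p at a mean of at least 1 FPKM. Mboat4 was named outside that rule after its values were seen. The fit was repeated with each library left out, with the replicate number as a block, with a pseudocount of 0.1, with deposited or median-of-ratios scaled FPKM, with all genes kept or a mean of at least 1 FPKM required, and with no eBayes trend. A fit with bKO replicates 1 and 3 averaged was added with the data in view. Other steps ran in Python 3.11.15 with scipy 1.17.1, numpy 2.4.6, matplotlib 3.10.9 and pandas 2.3.3.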

Additional observations from a re-analysis of the deposited data

How the results depend on the processing

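The count of members passing was 0 under all 14 alternatives, and Cartpt, Nts, Gast, Adcyap1 and Tac1 kept their direction under each one run (Adcyap1 and Tac1 have no value at a mean of at least 1 FPKM). Kcnj11, the deleted gene, passed in the main fit (log2 difference -2.35, limma adjusted p = 0.0250). It missed the threshold without WT replicate 2 or 3 (limma adjusted p = 0.0771 and 0.0960). It also missed without bKO replicate 1 or 3 (limma adjusted p = 0.228 and 0.175), in the blocked fit (0.0788) and with these bKO libraries averaged (0.211). Since the deleted gene failed there, 0 members passing in these fits shows little. The signs of Cck and Ghrl turned without quantile normalization (0.060 and 0.073) and under scaling by median of ratios (0.017 and 0.026), and that of Ghrl also with bKO replicates 1 and 3 averaged (0.097). With each library left out, log2 differences ran from -0.24 to 0.58 for Npy, -0.0022 to 0.72 for Gal, -0.086 to 0.076 for Cck and -0.28 to 0.19 for Ghrl. Genes passing numbered 31 in all, 0 with bKO replicates 1 and 3 averaged, and 0 to 50 with each library left out. Companion genes passing numbered 2, then 1 with either other scaling and 1 without a trend, 0 with the pair averaged and 0 to 2 with each library left out. The cause was not tested. With the replicate number as a block 0 genes and 0 companion genes passed, and the adjusted p was 0.0788 for Pdyn and 0.145 for Vgf. Deviations of same-numbered libraries correlated at -0.20, 0.07 and 0.30, and 2 of 6 libraries correlated best with their own number. Whether the numbers pair the samples cannot be told from this, because bKO replicates 1 and 3 were nearly alike. With the block, Cartpt kept a log2 difference of 0.60 (limma adjusted p = 0.158). Depth limits Gast, Nts and Tac1, which rested on as few as 9, 11 and 12 fragments in a library.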

Other observations

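Some precursors outside the members had values that enter no comparison. Trh, the precursor of thyrotropin-releasing hormone, which islets make around birth, was listed at 0.146, 0 and 0.0692 FPKM across WT replicates 1, 2 and 3, against 0 throughout the 3 bKO libraries. Grp, the precursor of gastrin-releasing peptide of pancreatic nerves, was at 0, 0.0567 and 0.363 FPKM in WT and at 0.198, 0.620 and 0.289 FPKM in bKO, in replicate order. Sct, the gene of secretin, was at 0.142, 0.278 and 0 FPKM in WT and at 0.120, 0.0907 and 0.142 FPKM in bKO.

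Adm, the precursor of the vasodilator adrenomedullin, was at 3.44, 4.45 and 3.71 FPKM in WT and at 9.26, 5.26 and 10.2 FPKM in bKO, in replicate order, without overlap (log2 difference 0.80, limma adjusted p = 0.196). Summed levels of 6 endothelial markers were 103 to 116 FPKM in WT and 148 to 151 FPKM in bKO. Adm was highest in bKO replicates 1 and 3, as were the summed markers of stellate cells (471, 247 and 462 FPKM in bKO), acinar cells (26046, 11544 and 25711 FPKM) and ducts (2376, 1947 and 2349 FPKM). The part of these lists in the Adm values was not tested. Calca, the gene of calcitonin and of a peptide of sensory nerves, was at 2.74, 2.49 and 4.12 FPKM in WT and at 1.93, 2.19 and 1.56 FPKM in bKO (log2 difference -0.59, limma adjusted p = 0.191). Adm and Calca were named after their values were seen.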
